A study of Mus musculus with 2 samples.

Results

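Of the 1225 distinct intervals in which YY1 was listed after cold exposure, 390 (31.8%) had another listed interval no more than 100 kb away, measured from edge to edge on the same chromosome. Chained by this gap, they formed 159 clusters, and the remaining 835 intervals stood alone and are called isolated here. The members were thus chosen from the positions of the cold intervals themselves, so that their number, their spacing and their presence in the cold list are descriptions and carry no test. The widest gap inside a cluster, between the intervals at Ubn2 and Fmc1 on chromosome 6, was 99885 bp, and the next wider gap, between Smcr8 with Top3a and Tmem11 on chromosome 11, was 100786 bp. The 4 summits of these pairs carried 36, 24, 26 and 15 fragments in this order, and no interval of either pair was listed at room temperature.

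The data are 2 lists of YY1-bound intervals in mature adipocytes, freed by collagenase digestion of iWAT, the subcutaneous white fat of the groin, of male wild-type C57 mice aged 8 to 10 weeks. One library represents room temperature housing and the other 7 days of cold, and nothing else is stated to differ between them. The series calls the assay ChIP-seq, while the protocol describes CUT&Tag, in which a transposase held by the antibody cuts and tags DNA beside the bound protein in native nuclei. The room temperature list held 162 distinct intervals. The labels do not state how many mice gave each library. Names of room temperature peaks contain the number 30 and names of cold peaks the number 4, and what these stand for is not stated. If they were housing temperatures, the baseline would be warmer than its label says, and each ratio to it below would carry that difference. There were no replicates, so differences between the conditions have no replicate check. Such lists measure binding over a population of nuclei: more nuclei bound and more binding per nucleus cannot be told apart. The lists do not measure expression, so they could not check the adipocyte label: 0 of 8 adipocyte marker genes, among them Adipoq, Plin1 and Fabp4, had a cold summit within 1 kb of an end, beside 5.64% of all protein-coding genes, so a count of 0 in a list this short says nothing of the label.

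YY1 is a zinc finger transcription factor that activates some genes and represses others. It binds a short element with the core CCAT, or ATGG on the other strand, which often lies close to the start of housekeeping genes for translation, mitochondria and RNA processing. YY1 can also form dimers and is known to take part in loops between promoters and enhancers. In mammals, housekeeping genes tend to lie near each other in gene-dense stretches, many of them sharing a promoter with a neighbour that is transcribed in the opposite direction.

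The YY1 element was looked for in promoter windows of 300 bases, reaching from 250 bases before the start of transcription to 50 after it, as the motif AANATGGCG on either strand. Sequences are from RefSeq on GRCm38.p6, the assembly that mm10 names, and 317 of the 387 protein-coding genes at clustered summits had such a window. The windows below are shown because each holds the summit of a cluster member and because neighbours of 1 cluster can be compared. Each runs 5′ to 3′ on the strand of its gene, and capitals mark every match to the motif on either strand. The first 4 belong to a cluster of 7 intervals on chromosome 17, the next 2 to a cluster of 6 on chromosome 14, and the next 2 to a pair of zinc finger genes on chromosome 8. Txndc15 closes a cluster of 4 on chromosome 13, and Dedd, in the largest cluster of all on chromosome 1, holds no match.
Ndufa7, chr17:33824395-33824694, plus strand: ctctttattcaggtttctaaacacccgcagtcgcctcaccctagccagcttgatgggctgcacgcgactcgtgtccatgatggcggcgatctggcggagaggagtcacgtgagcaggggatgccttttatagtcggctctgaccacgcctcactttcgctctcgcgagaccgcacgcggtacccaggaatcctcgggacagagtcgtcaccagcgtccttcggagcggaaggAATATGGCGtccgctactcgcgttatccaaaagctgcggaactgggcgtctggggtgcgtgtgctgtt
Daxx, chr17:33909195-33909494, plus strand: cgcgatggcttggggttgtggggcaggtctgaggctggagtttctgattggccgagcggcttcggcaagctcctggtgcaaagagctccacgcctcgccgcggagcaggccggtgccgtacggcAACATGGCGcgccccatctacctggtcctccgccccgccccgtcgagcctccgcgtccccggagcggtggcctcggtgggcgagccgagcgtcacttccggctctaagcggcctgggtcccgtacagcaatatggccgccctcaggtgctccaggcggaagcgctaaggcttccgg
Wdr46, chr17:33940473-33940772, plus strand: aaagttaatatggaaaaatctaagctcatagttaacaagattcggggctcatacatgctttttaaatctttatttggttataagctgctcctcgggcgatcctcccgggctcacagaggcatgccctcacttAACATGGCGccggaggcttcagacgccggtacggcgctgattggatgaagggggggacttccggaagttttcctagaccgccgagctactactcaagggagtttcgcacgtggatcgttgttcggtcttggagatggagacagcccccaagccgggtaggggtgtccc
Rxrb, chr17:34031562-34031861, plus strand: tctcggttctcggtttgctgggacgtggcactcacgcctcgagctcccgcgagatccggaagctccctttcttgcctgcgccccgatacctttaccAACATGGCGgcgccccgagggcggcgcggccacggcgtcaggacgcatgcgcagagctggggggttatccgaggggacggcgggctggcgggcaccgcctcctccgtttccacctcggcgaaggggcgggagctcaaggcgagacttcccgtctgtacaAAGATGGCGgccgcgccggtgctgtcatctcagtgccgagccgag
Oxa1l, chr14:54360591-54360890, plus strand: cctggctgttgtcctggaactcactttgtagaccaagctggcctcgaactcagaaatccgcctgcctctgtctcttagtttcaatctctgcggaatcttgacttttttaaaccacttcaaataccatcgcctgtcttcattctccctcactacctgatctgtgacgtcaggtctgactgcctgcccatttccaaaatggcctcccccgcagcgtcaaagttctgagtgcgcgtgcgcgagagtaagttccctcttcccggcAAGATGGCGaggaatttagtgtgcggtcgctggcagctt
Psmb5, chr14:54617946-54618245, minus strand: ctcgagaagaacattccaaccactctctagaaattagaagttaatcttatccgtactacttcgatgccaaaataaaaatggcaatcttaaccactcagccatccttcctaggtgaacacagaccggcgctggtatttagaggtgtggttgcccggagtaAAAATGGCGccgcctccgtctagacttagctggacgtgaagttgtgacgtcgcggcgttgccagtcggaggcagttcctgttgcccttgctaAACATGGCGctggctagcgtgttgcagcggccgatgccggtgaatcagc
Zfp882, chr8:71908356-71908655, plus strand: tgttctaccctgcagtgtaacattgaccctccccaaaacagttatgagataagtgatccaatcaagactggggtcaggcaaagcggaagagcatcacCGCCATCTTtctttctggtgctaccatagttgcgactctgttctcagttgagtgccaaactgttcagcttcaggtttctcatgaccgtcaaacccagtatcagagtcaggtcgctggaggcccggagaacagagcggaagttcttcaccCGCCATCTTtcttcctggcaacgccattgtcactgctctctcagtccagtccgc
Zfp617, chr8:71922575-71922874, plus strand: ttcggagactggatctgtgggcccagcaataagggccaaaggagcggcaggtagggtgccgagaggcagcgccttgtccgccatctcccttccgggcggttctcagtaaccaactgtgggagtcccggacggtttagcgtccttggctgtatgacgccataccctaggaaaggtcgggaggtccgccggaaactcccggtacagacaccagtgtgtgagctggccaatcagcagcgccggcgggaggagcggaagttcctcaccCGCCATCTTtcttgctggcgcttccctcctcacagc
Txndc15, chr13:55714400-55714699, plus strand: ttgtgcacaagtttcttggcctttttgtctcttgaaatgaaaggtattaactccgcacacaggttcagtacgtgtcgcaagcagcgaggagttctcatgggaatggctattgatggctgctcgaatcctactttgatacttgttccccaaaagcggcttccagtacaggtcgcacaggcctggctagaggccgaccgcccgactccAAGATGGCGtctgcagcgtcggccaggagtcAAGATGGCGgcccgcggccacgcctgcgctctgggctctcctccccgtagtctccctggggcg
Dedd, chr1:171328895-171329194, plus strand: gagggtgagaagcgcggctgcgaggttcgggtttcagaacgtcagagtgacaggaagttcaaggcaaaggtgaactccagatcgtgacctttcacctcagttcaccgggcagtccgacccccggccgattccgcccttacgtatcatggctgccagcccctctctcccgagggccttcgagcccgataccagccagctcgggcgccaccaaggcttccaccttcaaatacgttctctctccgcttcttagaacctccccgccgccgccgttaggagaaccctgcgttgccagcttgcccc

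Ndufa7 encodes a subunit of respiratory complex I, Daxx a histone chaperone, Wdr46 a nucleolar protein of ribosome biogenesis and Rxrb a retinoid X receptor. Oxa1l inserts proteins into the mitochondrial inner membrane, and Psmb5 is a catalytic subunit of the proteasome. The match was centred at -14 from the start of transcription in Ndufa7, at -122 in Daxx, at -114 in Wdr46 and at 15 in Oxa1l. Psmb5 had 2 matches, at -87 and 5, Rxrb 2, at -150 and 9, and Txndc15 2, at -40 and -9. In these 7 windows all matches read in the direction of the gene, whereas the 2 matches of Zfp882, at -149 and 0, and the match of Zfp617, at 18, read on the opposite strand. The windows shown are not typical in this. Counted for each window with a clustered summit, 55 of 87 matches (63.2%) read in the direction of the gene. The share was 60.3% at isolated summits and 62.2% in all promoter windows. No sequence is shown for intervals outside promoter windows.

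Among windows that held a clustered summit, 75 of 144 (52.1%, 95% interval 43.6 to 60.5) contained AANATGGCG, against 2.37% of all 32817 windows. Of the 21232 windows of protein-coding genes 3.12% did. The nearest comparison lies inside the clusters: of 375 promoter windows within the cluster spans that no cold interval touched, 3 (0.8%, 0.165 to 2.32) contained it. Those 3 windows, named after their values were seen, belonged to Dot1l, Zbtb22 and Bglap3. Windows with an isolated summit held the motif in 158 of 321 cases (49.2%, 43.6 to 54.8), an interval that overlaps that of the clustered windows. For the shorter core ATGGC, which every match to the longer motif contains, the shares were 91.7% (85.9 to 95.6) with a clustered summit, 96% (93.2 to 97.8) with an isolated summit, 36% (31.1 to 41.1) for untouched windows in the spans and 40.5% of all windows. All intervals here are exact 95% binomial intervals and cover counting error only, and windows that share a promoter overlap and are not independent.

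**Figure D1:**
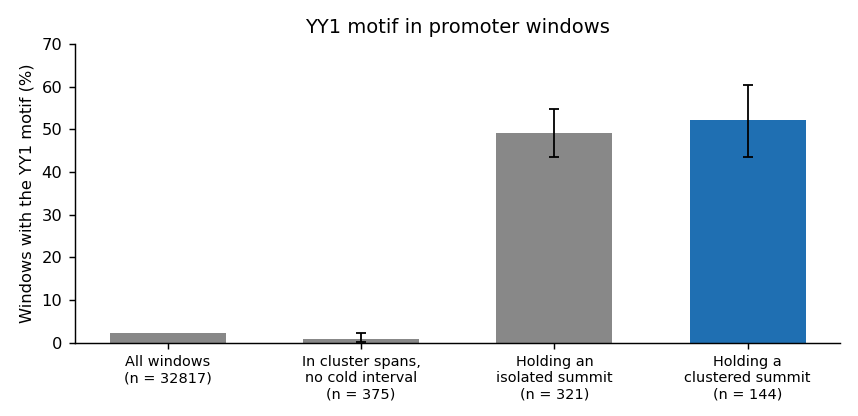
Share of 300-base promoter windows with a match to AANATGGCG on either strand (vertical axis, %), for all windows, for windows inside cluster spans that no cold interval touches, and for windows that hold an isolated or a clustered summit. Bars of the last 3 sets carry exact 95% binomial intervals. Windows with a summit reach 49.2% and 52.1%, and untouched windows within the same clusters 0.8%.

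The matches lay close to the summits. Over 74 matches at clustered summits, the distance from the motif's centre to the summit had a median of 37.5 bp (quartiles 21 and 54.8), and 52 of the 74 (70.3%, 58.5 to 80.3) lay within 50 bp. At isolated summits 109 of 153 did (71.2%, 63.4 to 78.3). These distances cannot exceed the window. By interval, 64 of the 120 members with a summit in a promoter window had a match there. Their summits carried a median of 27 fragments (quartiles 19.8 and 53.8), and the 56 members without a match a median of 23 (14 and 31). Of the 24 such members that were also listed at room temperature 18 had a match (75%, 53.3 to 90.2). Of the 96 that were not, 46 had one (47.9%, 37.6 to 58.4). These 2 intervals overlap, which does not show equal shares, and the difference was not tested. Over all clustered intervals, those listed at room temperature were also stronger after cold, with a median of 46 fragments against 20. In 53 clusters at least 1 member had a match, and in 9 clusters 2 or more did. The cluster on chromosome 17 stood out by count, with a match at all 4 members whose summit lay in a window. The other 8 clusters had 2 such members each, among them the pairs Ndufc1 with Naa15, Cops6 with Taf6, Pick1 with Pla2g6 and Zfp882 with Zfp617.

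Most clusters were pairs. Of the 159 clusters, 119 had 2 intervals (74.8%), 26 had 3, 7 had 4 and 7 had 5 or more, up to 9. The clusters of 3 or more held 152 of the 390 members. A cluster spanned a median of 56.3 kb (quartiles 27.3 and 85.3), from 0.901 kb in Epc2, the gene of a subunit of a histone acetyltransferase complex, to 326 kb around Psmb5. Over the 231 gaps between neighbouring members the median was 39.2 kb (quartiles 15.8 and 67.3). Gaps of at most 20 kb made up 70 of the 231, and the next 4 steps of 20 kb held 46, 41, 39 and 35. Between all neighbouring cold intervals, 16 gaps measured 90 to 100 kb and 21 measured 100 to 110 kb, so the limit of 100 kb fell at no break in the spacing.

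The shortest gaps were mostly within a gene. Of the 17 gaps of at most 1 kb, 16 had 1 gene that held, or ended within 1 kb of, both members, and over all gaps this was so for 39 of 231 (16.9%). In the pairs with such a gene the median gap was 2.17 kb, and in the 137 pairs at ends of different protein-coding genes it was 51.2 kb. Most summits lie at or in genes, so members within 1 kb of each other mostly share one by this definition. The length of a gene also limits the gap between members that share it. The 5 clusters of the shortest span were all pairs with such a shared gene. They lay in Epc2 (20 and 16 fragments), in the G protein gene Gnai2 (16 and 6), at the promoter that the actin-capping gene Capza1 shares with St7l (52 and 27), in Rprd2 (17 and 24) and at Git2 (19 and 13). Capza1 alone of these 5 was listed at room temperature, with 15 fragments. With gaps of at most 1 kb merged first, 366 members in 152 clusters were left.

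**Figure D2:**
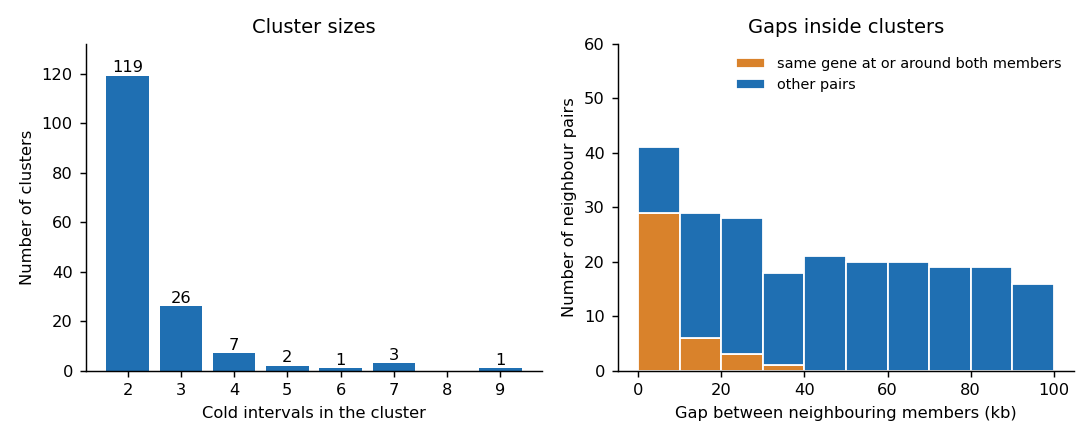
Left, number of clusters (vertical axis) by the number of cold intervals in them. Right, number of neighbour pairs by the gap between them in steps of 10 kb, with pairs at which 1 gene holds or ends at both members in orange and all others in blue. Pairs of 2 intervals are the commonest cluster (119 of 159), and the same-gene pairs fill mostly the first 10 kb.

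Clusters lay where genes are dense. A clustered summit had a median of 4 protein-coding genes within 50 kb (quartiles 3 and 7), an isolated summit 3 (2 and 4), and the left end of any protein-coding gene 3 (2 and 5), itself included. At least 7 genes lay that close at 103 of 390 clustered summits (26.4%, 22.1 to 31.1), at 58 of 835 isolated summits (6.95%, 5.32 to 8.89) and at 11.3% of all genes. Members were chosen for lying near each other and most summits lie at genes, so this measure is tied to the rule, and the difference was not tested. By chromosome, the clustered share was 51.1% on chromosome 19 (24 of 47 intervals), 50.7% on chromosome 17 (36 of 71) and 48.5% on chromosome 13 (16 of 33). It was 10% on chromosome 12 (4 of 40) and 7.69% on the X chromosome (2 of 26).

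Within a cluster, YY1 sat at gene ends as it did elsewhere. A protein-coding or lncRNA gene ended within 1 kb of 330 of the 390 clustered summits (84.6%, 80.6 to 88), of 706 of the 835 isolated summits (84.6%, 81.9 to 86.9) and of 84.6% of all. A further 45 clustered summits lay inside a gene and 15 outside genes. The promoter table, which gives strands, placed 293 of 379 clustered summits (77.3%, 72.8 to 81.4) within 1 kb of a start of transcription, beside 664 of 813 isolated ones (81.7%, 78.8 to 84.3) and 80.3% of all. The clustered summits among them lay at a median of 58 bp downstream of that start (quartiles -65 and 108). The table has no entries for chromosome 18, so the 11 members there are left out of that count. At least 2 protein-coding genes ended within 1 kb at 88 clustered summits (22.6%, 18.5 to 27) and at 167 isolated ones (20%, 17.3 to 22.9).

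The 159 clusters reached 387 protein-coding genes through an end within 1 kb, which is 31.4% of the 1234 genes that any cold summit reached (5.64% of 21887 genes). A cluster reached a median of 2 (quartiles 2 and 3) and up to 11. The cluster spans overlapped a median of 3 protein-coding genes (quartiles 2 and 5), up to 23, and 350 of these 624 genes (56.1%) had a member summit at an end. Each span starts and ends at a member and most members lie at gene ends, so this share is tied to the rule. In 59 clusters the span held no protein-coding gene without a member summit at an end. These include clusters whose span overlapped no protein-coding gene. Between 137 neighbouring members at ends of different genes, a median of 1 gene (quartiles 0 and 2, at most 6) was passed over without a listed summit, and in 46 of the 137 pairs (33.6%) none was. In 101 of these pairs a start of transcription lay within 1 kb of both summits. The nearest start to each was used, which can belong to another gene than the one paired, such as a lncRNA gene. These starts ran in the same direction in 57 pairs (56.4%), away from each other in 23 and towards each other in 21. In 8 clusters no member lay at a protein-coding gene end. These included 3 intervals outside genes on chromosome 15, nearest to the lncRNA genes AU022754 and Lncppara, with 14 to 16 fragments. Another 3, with 21 to 39 fragments, lay on chromosome 8 inside Trmt1 and Nfix and near Ier2.

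The largest cluster held 9 intervals over 261 kb of chromosome 1 (171150270 to 171411529). Its outermost members lay in Sdhc, which encodes the membrane anchor of respiratory complex II, and beside Usf1, the gene of a transcription factor of metabolic genes. In order along the chromosome, with 1 member left out, the cold summits carried 18 fragments at Sdhc, 79 at Tomm40l, a gene of mitochondrial protein import, and 35 at the galactosyltransferase gene B4galt3. They went on with 58 at the deubiquitinase gene Usp21, 67 at Ufc1, which encodes a conjugating enzyme of the ubiquitin-like modifier UFM1, 70 in Dedd, a death effector domain gene, 19 between Nit1 and the prefoldin gene Pfdn2, and 85 at Usf1. At room temperature 5 of these 9 were listed, those of Tomm40l (23 fragments), Usp21 (13), Ufc1 (12), Dedd (15) and Usf1 (12). They were the 5 with the highest cold pileups, and all 5 were higher after cold, by 3.43-fold at Tomm40l to 7.08-fold at Usf1. At Usf1 the 95% intervals were 67.9 to 105 for the cold pileup and 6.2 to 21 for the other, and the ratio there was the highest of all clustered intervals. The span overlapped 20 protein-coding genes, and genes such as Fcer1g, Nr1i3 and Nectin4 within it had no summit at an end.

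A cluster of 7 intervals spanned 296 kb of chromosome 17 (33824269 to 34120687), in the centromere-side part of the major histocompatibility complex. The cold summits carried 13 fragments between Ndufa7 and the ribosomal protein gene Rps28, 36 at Daxx, 47 between Wdr46 and the prefoldin gene Pfdn6, and 20 at Vps52 and Rps18. They carried 61 between the zinc transporter gene Slc39a7 and Rxrb, and 19 and 23 at a pair of intervals 283 bp apart, inside the bromodomain gene Brd2 and at the start of H2-DMa, which encodes a chaperone of antigen loading. Listed at room temperature were the summits of Wdr46 (8 fragments), Slc39a7 (16) and the first of the H2-DMa pair (10). Of the 23 protein-coding genes in the span, those of the class I molecule H2-K1, the peptide-loading factor Tapbp and the collagen Col11a2 had no summit at an end. The promoters of Ndufa7, Daxx, Wdr46 and Rxrb are those shown above with the motif in capitals.

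The other 2 clusters of 7 lay on chromosome 7. The one with more genes (127376006 to 127589018) ran along a row of zinc finger genes, with 24 fragments at Zfp747, 43 at 9130019O22Rik, 20 at Zfp764 and 18 at Zfp689. It continued with 52 inside Prr14, 27 at Srcap, the ATPase gene of a chromatin remodeller, and 24 at the ubiquitin ligase gene Rnf40. None of these 7 was listed at room temperature. The other (73524448 to 73618747) touched 1 protein-coding gene, Chd2, a chromatin remodeller gene. Its 7 members carried 39, 42 and 20 fragments in Chd2, the last at its end, 13 and 15 at the adjacent lncRNA gene Chaserr, whose RNA is known to restrain Chd2, and 28 and 24 in and beyond the lncRNA gene Gm30149. Of these, the first Gm30149 interval was listed at room temperature, with 6 fragments.

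The cluster with the strongest member held 6 intervals over 326 kb of chromosome 14 (54360579 to 54686721). Psmb5 carried 122 fragments after cold (95% interval 101 to 146) and 27 at room temperature (17.8 to 39.3), and Oxa1l 65 and 16. The other 4 were listed after cold only, with 31 fragments at the mitochondrial ribosomal protein gene Mrpl52, 14 at the arginine methyltransferase gene Prmt5, 28 in 4931414P19Rik and 21 at the splicing-related gene Acin1. Of 15 protein-coding genes in the span, Mmp14, Lrp10 and Psmb11, a proteasome subunit gene of the thymus, had no summit at an end. The next clusters in size had 5 intervals each and none listed at room temperature. One lay on chromosome 17 between the tubulin gene Tubb5 and Ppp1r10 with 16 to 26 fragments, the other on chromosome 6 between Htra2, the gene of a mitochondrial protease, and Ino80b, a remodeller subunit gene, with 9 to 41.

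**Figure D3:**
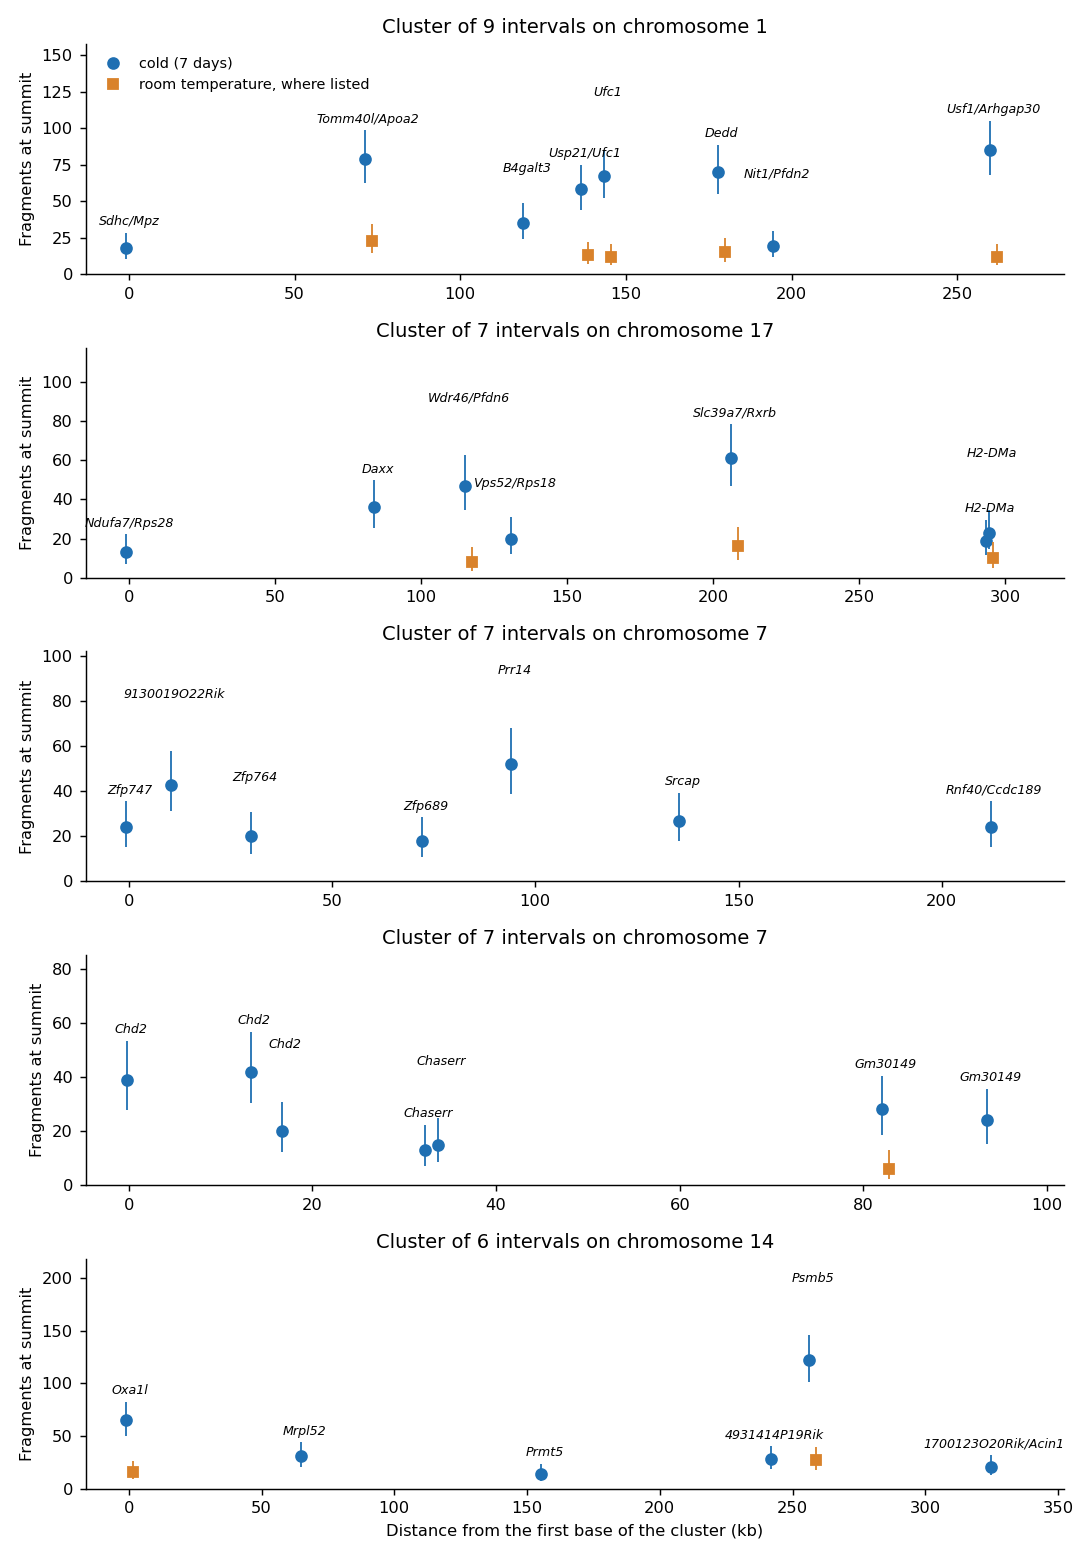
Fragments at the summit (vertical axis) of the members of the 5 largest clusters, without 1 member on chromosome 1, by distance from the first base of the cluster (horizontal axis, kb), after cold (blue circles) and at room temperature where listed (orange squares, moved slightly sideways). Lines are exact 95% Poisson intervals, and a missing square means no listed interval, not 0. On chromosome 1 the 5 highest blue points carry a square, and on chromosome 7 the row from Zfp747 to Rnf40 has none.

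Of the 7 clusters of 4, the 3 with the highest summed pileups are described here. On chromosome 13 the summits carried 12 fragments at the RNA helicase gene Ddx41, 23 at Fam193b, 60 at Caml and 92 at Txndc15. On chromosome 10 the 4 values were close to each other, at 29 in Sbno2, 25 at the kinase gene Stk11, 28 in the cold-inducible RNA-binding protein gene Cirbp and 27 at Ndufs7 of complex I. On chromosome 7 they were 9 at Scaf1, 20 at Prr12 and 59 at the ribosomal protein gene Rpl13a, with 1 member left out. None of the intervals named in these 3 clusters was listed at room temperature.

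Signal was uneven between neighbours. The larger pileup of a neighbouring pair exceeded the smaller by a median of 1.65-fold (quartiles 1.27 and 2.44, at most 6.1), and in 58 of 231 pairs (25.1%) the exact 95% Poisson intervals of both pileups did not overlap. The highest pileup of a cluster had a median of 29 fragments and the lowest a median of 15, which differ by definition. Pileups of all cold intervals had quartiles of 15 and 29, and pairs that are not neighbours were not compared. The unevenness is therefore not shown to be particular to neighbours. As a set, clustered summits carried a median of 21 fragments (quartiles 15 and 31) and isolated ones 20 (15 and 28). The authors' fold enrichment had medians of 10.8 and 10.4. These differences are small beside the spread between intervals and were not tested. Of the 10 clustered intervals with the highest −log10 q, 5 were listed in both conditions. These lay at Psmb5, at Akt1s1 with Tbc1d17 (81 fragments after cold, 15 at room temperature), at Ccdc124 (92 and 19), at the transcription factor subunit gene Gtf3c6 (76 and 18) and at Tomm40l. The other 5, those of Txndc15, the RNA exosome gene Exosc2 (75), the fatty acid oxidation gene Ech1 (73), Prkcsh (71) and Sdf4 (71), had no room temperature interval.

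At room temperature, 56 of the 390 clustered intervals were listed (14.4%, 11 to 18.2), beside 95 of 835 isolated ones (11.4%, 9.3 to 13.7) and 12.3% of all cold intervals. The share among clustered intervals is thus close to that of all. With the whole cold list split into 4 classes of about equal size by −log10 q, the strongest class gave 40 of 115 clustered (34.8%) and 67 of 192 isolated intervals (34.9%). The next class gave 11 of 88 (12.5%) and 19 of 218 (8.72%), with overlapping intervals. By size of the cluster, the share was 13% in pairs, 16.7% in clusters of 3, 3.57% in clusters of 4 (1 of 28) and 23.9% in clusters of 5 or more (11 of 46, 12.6 to 38.8), 5 of the 11 from the cluster on chromosome 1. A missing entry is not a measured 0, because the lowest pileup listed at room temperature was 6 fragments.

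**Figure D4:**
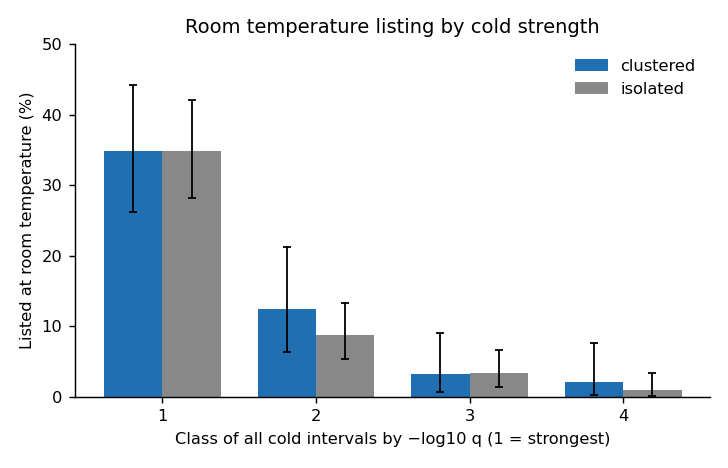
Share of cold intervals listed at room temperature (vertical axis, %) for clustered (blue) and isolated (grey) intervals, in 4 classes of all cold intervals by −log10 q (1 is the strongest). Error bars are exact 95% binomial intervals. Both sets run from about the same share in class 1 (34.8% and 34.9%) to 2.15% and 0.939% in class 4.

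The 56 room temperature intervals fell into 43 of the 159 clusters (27%, 20.3 to 34.7), and 0 further room temperature intervals lay in the cluster spans without overlapping a member. In 35 clusters a single member was listed, and in 28 of these 35 (80%, 63.1 to 91.6) it was the member with the highest cold pileup. Ties counted as highest, and most clusters are pairs, so a member picked without regard to strength would often be the highest too. In the 40 clusters with both listed and unlisted members, listed members carried a median of 45 fragments after cold (quartiles 28 and 61) and unlisted ones 21 (15 and 30.5). Listing followed cold strength among isolated intervals too (34.9% in the strongest class, 0.939% in the weakest), so neither value is shown to be particular to clusters. In the room temperature list itself, 21 of 162 intervals (13%) had another within 100 kb, in 8 clusters. A shorter list has fewer close neighbours, and no cold list of equal length was compared.

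In 8 cold clusters 2 or more members were listed at room temperature, and in 3 of the 8 every member was. The first of the 3, on chromosome 7, joined Akt1s1, an mTOR complex 1 substrate gene, Med25, a Mediator subunit gene, and Fuz, a gene of cilium formation. Their summits carried 15, 11 and 10 fragments at room temperature and 81, 52 and 33 after cold. The second, also on chromosome 7, joined Eif4g2, a translation initiation gene, and the lncRNA gene 1700012D14Rik, with 22 and 16 against 86 and 54. The third, on chromosome 10, joined Rpf2, a ribosome biogenesis gene, and Gtf3c6, with 11 and 18 against 46 and 76. The ratios of cold to room temperature pileup were 5.4, 4.73 and 3.3 in the first, 3.91 and 3.38 in the second and 4.18 and 4.22 in the third. Besides the clusters of chromosomes 1, 17 and 14, the remaining 2 lay on chromosome 19 and chromosome 8. On chromosome 19, Bscl2 with Gng3 had 16 against 39 fragments and Ganab, a glucosidase subunit gene, 10 against 24, while the third member, at Tmem223, had 18 after cold only. On chromosome 8, Gadd45gip1 had 10 against 15, while Farsa, a phenylalanyl-tRNA synthetase gene, had the highest cold pileup of that cluster, 41, and no room temperature interval.

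At all 56 clustered intervals listed in both conditions the cold pileup was the higher one, by a median of 3.4-fold (quartiles 2.68 and 4.13). At the 94 isolated intervals listed in both, leaving out 1 whose background exceeded 10 fragments, the median was 3.14-fold (2.58 and 4.17). The cold pileup was the higher one at all of these too, thus at all 150 shared intervals. With 1 library per condition, a difference between conditions and one between libraries cannot be told apart. The cold pileup was at least 2-fold higher at 52 of the 56 clustered intervals (92.9%, 82.7 to 98), beside 92.7% of all 150 shared intervals. The 95% intervals of both pileups did not overlap at 45 of the 56 (80.4%), at 75 of the 94 isolated intervals (79.8%) and at 80% of all 150, so the clustered share is close to that of all. The smallest ratios were 1.5 at Gadd45gip1 and 1.61 at Ndufs6 with Mrpl36 (18 fragments against 29). The largest after Usf1 were 6.86 at Zfp882 (7 against 48) and 5.88 at Wdr46 (8 against 47). Read depth is unknown. As a rough stand-in, the lowest background of each list was divided by the width of its shortest interval, and this value was 1.05 times higher for cold. Shared intervals had to pass the listing threshold in both libraries, so these ratios do not cover the 334 clustered intervals without a room temperature entry.

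**Figure D5:**
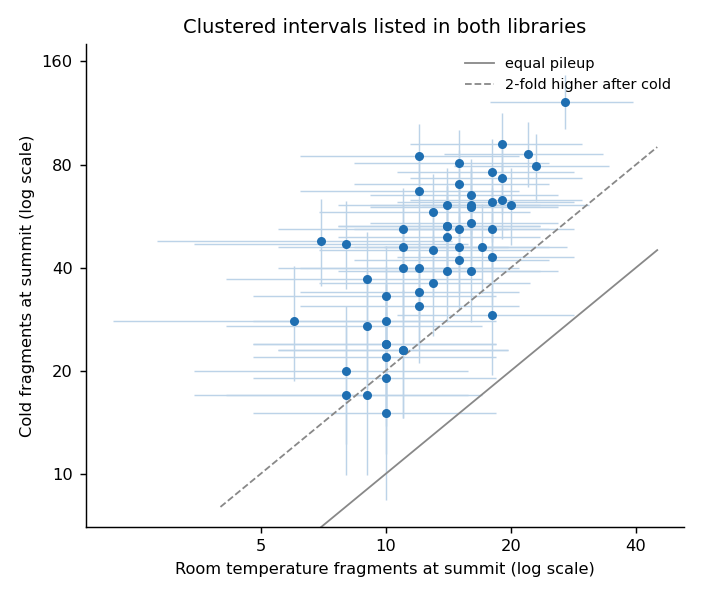
Fragments at the summit after cold (vertical axis, log scale) against room temperature (horizontal axis, log scale) for the 56 clustered intervals listed in both libraries, with exact 95% Poisson intervals. The solid line marks equal pileups and the dashed line a cold pileup 2-fold higher. All points lie above the solid line and 52 on or above the dashed one.

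Gene families were read from fixed symbol lists, as protein-coding genes with an end within 1 kb of a clustered summit. The families of translation and mitochondria were spread over many clusters rather than gathered in a few. Of 32 oxidative phosphorylation genes at cold summits 12 were at clustered ones, with 11 to 46 fragments, of 28 mitochondrial ribosomal protein genes 10 (9 to 31) and of 20 cytosolic ribosomal protein genes 7 (median 20). These are 37.5%, 35.7% and 35%, beside 31.4% of all genes at cold summits. No cluster had 2 oxidative phosphorylation genes or 2 mitochondrial ribosomal protein genes at its summits, although Ndufs6 shared a summit with Mrpl36. Among cytosolic ribosomal protein genes, Rps18 and Rps28 lay at summits of the same cluster. Vesicle traffic genes had 9 of 16 bound members in clusters, among them Rab7 and Vps11, RNA polymerase and Mediator subunits 5 of 10, translation factors 7 of 16, RNA helicases 4 of 9, spliceosome genes 5 of 14, proteasome genes 3 of 11, ubiquitin enzymes 3 of 8 and transmembrane protein genes 5 of 22. The translation factor list, taken by symbol, includes the methyltransferase gene Eef1akmt4 and its readthrough gene, which share 1 summit with Alg3.

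Zinc finger genes, many of which lie in tandem arrays, were the family with the most clusters of relatives. Of 465 such genes 38 were at a cold summit and 16 of the 38 at clustered ones (42.1%). In 5 clusters there were 2 or more of them: Zfp524, Zfp784 and Zfp580 with Fiz1 on chromosome 7, Zfp110 with Zfp128 (11 and 15 fragments) and the row from Zfp747 on the same chromosome, Zfp868, Zfp869 and Zfp866 (26, 12 and 20) with Atp13a1 (16) on chromosome 8, and Zfp882 with Zfp617 (48 and 29) further along it. Among histone genes 5 of 90 had a cold summit at an end, 3 of the 5 at a clustered summit, all from 1 summit with 6 fragments near H2ac21. Of the homeobox genes in the Hox clusters 1 of 39 had a cold summit, outside any cluster, and of the protocadherin genes 0 of 69, beside 5.64% of all protein-coding genes. Of the marker genes of other cell types of fat tissue, the endothelial gene Pecam1 alone lay at a cold summit, with 18 fragments. That summit was clustered with those at Cep95 and Ddx5, at the other end of a span of 73.8 kb. The macrophage gene Cd68 lay in a cluster span without a summit. On the sex chromosomes there were 2 clusters, 1 interval inside Zfp185 and 1 nearest to Pnma3 on X (27 and 12 fragments) and Uty with the RNA helicase gene Ddx3y on Y (15 and 16).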

How the data were processed

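YY1-bound intervals were taken from 2 deposited peak lists, 1 per condition, so peaks were called per library. BWA, SAMtools, MACS2 and deepTools are named per the submitters' processing notes, with the build mm10. Settings, duplicate handling and any control library were not given in the sources used. Each entry has a score, a fold enrichment (a linear ratio) over local background, a −log10 p and a −log10 q, and a summit position, as the authors deposited them. As a check, 10 times the deposited −log10 p, cut to its whole part, gave the score of each of the 1424 entries.

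The members, families and comparisons were chosen with earlier results of these data known. Entries with the same coordinates were joined into 1 interval, represented by its summit of highest −log10 p. Intervals were chained by gaps of at most 100 kb. The fragments covering each summit (its pileup) were recovered as the whole number that gives both the deposited fold, with a pseudocount of 1, and the deposited −log10 p under a Poisson background. All 1424 entries were matched within 0.0002. For 1 entry a second whole number also fell within this limit. Read totals are not in the lists, so the depth of each library is unknown. Pileups have exact 95% Poisson intervals and shares Clopper-Pearson intervals, which cover counting error only, and fragments may include PCR copies. No p-value was computed, since each condition has 1 library. Room temperature counterparts overlapped by at least 1 bp. Coordinates are 1-based. Genes (21887 protein-coding and 12727 lncRNA) and promoter windows came from RefSeq tables of GRCm38.p6. The gene table gives no strand, so a gene end here may be either the start or the finish of transcription.

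Genes were named for the 10 clusters with the most intervals (ties by summed pileup), the 5 shortest, those with 2 or more members listed at room temperature, the 10 members of highest −log10 q, and clusters with 2 genes of a family. A few members that this rule names are not reported here. Others, such as examples without a summit, were chosen after their values were seen. The steps were tested on simulated data. Python 3.11.15, numpy, pandas 2.3.3, scipy 1.17.1 and matplotlib were used. Alternatives covered the gap, the peak threshold, background, overlap, gene window, depth and motif.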

Additional observations from a re-analysis of the deposited data

How the results depend on the processing

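With 1 library per condition no library could be left out, and the missing replicates and unknown read depth limit every comparison between conditions. No paired analysis was possible because there are no replicates to pair. Of 84 values under alternatives, 64 stayed close to the reported value and 20 moved. Close means within 1.5 times for counts and ratios, within the quartiles of the reported set for medians, and within the 95% interval for shares. Where they moved, the alternative changed which intervals or windows count, or how a gene end or the motif was defined. With a largest gap of 10 kb there were 80 members (6.53%) in 39 clusters of at most 3 intervals, 8 of them with a room temperature interval, and with 50 kb 245 members (20%). With 200 kb the clustered share was 47.7%. Only cold intervals in the upper part of the −log10 q range, split at its median, left 126 members (20.6%) in 53 clusters, 25 of them with a room temperature interval. Among these, 27.8% of members were listed at room temperature and the median pileups were 31 fragments for clustered and 29 for isolated summits, the second just above the upper quartile of the full isolated set. Gene ends within 500 bp and 3 kb gave 75.9% and 91.8% of clustered summits. The core ATGGC in place of the longer motif gave 91.7% of windows. Chosen after seeing the data were gene starts within 1 kb (77.3%), a −log10 q of at least 20 (39.2% of members listed at room temperature), windows touched by a clustered interval (38.2% with the motif) and the merging of gaps of at most 1 kb.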
